A study of Mus musculus with 26 samples.

Results

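This is an account of what retinoic acid (RA) and vitamin C (VitC), given together, did to the transcripts of mouse CD4 T cells that were being turned into induced regulatory T (iTreg) cells with TGFβ. It compares the 2 RNA-seq libraries labelled TGFβ+RA+VitC with the 2 labelled TGFβ, which is 4 of the 26 libraries of the series, and sets the total effect beside the sum of the effects of RA alone and VitC alone. All 4 came from naive CD4 T cells of spleen and lymph nodes of C57BL/6 Foxp3-eGFP reporter mice, aged 5-6 weeks, whose green fluorescent protein marks cells that express Foxp3. The single effects rest on 2 further libraries each (TGFβ+VitC and TGFβ+RA), from mice of the same strain, genotype and age. Libraries of naive cells, sorted as eGFP-negative CD4 T cells with surface markers of the naive state, and of cells activated through CD3 and CD28 without TGFβ (Th0), 2 of each, entered the same model to measure the spread between libraries. The naive and Th0 libraries were also from mice aged 5-6 weeks.

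The labels give neither the dose of either supplement nor the length of the culture, and for these libraries they do not say that Foxp3-positive cells were sorted before RNA was taken. Nor do they say that the 2 libraries of a group came from separate mice or cultures, so every p-value measures the spread between these libraries, which may be technical. In bulk RNA, fewer cells of a kind and less RNA per cell cannot be told apart.

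As background, TGFβ induces Foxp3, the factor on which regulatory T cells depend, in activated naive CD4 T cells. RA, a metabolite of vitamin A made by dendritic cells of the gut, binds nuclear receptors (RAR paired with RXR) that sit on direct repeats in DNA, favours Foxp3 over the Th17 programme and gives T cells receptors for homing to the intestine. VitC keeps iron in its reduced form in dioxygenases that use iron and oxoglutarate. These include the TET enzymes, which oxidise methylated cytosine, for example in the Foxp3 enhancer that makes its expression stable, and the prolyl hydroxylases of collagen and of hypoxia-inducible factor.

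The 4 libraries held 10397148 to 11640223 reads counted over genes. Levels are given as CPM, the counts of a gene relative to the library total after TMM scaling, and differences as log2 fold changes ± SE from edgeR. Summed T cell markers (Cd3e, Cd4, Lck and 9 others) stood at 6370 and 6560 CPM in the TGFβ libraries and at 6290 and 6570 CPM with both supplements, and all 12 were detected. Foxp3 itself was counted at 27.1 and 27.3 CPM in naive cells and at 15.9 and 16.6 CPM in Th0 cells, against 539 and 558 CPM with TGFβ alone.

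Both supplements together changed 4232 of 11287 tested genes (37.5%) at an adjusted p under 0.05. Of these, 2062 were higher (18.3%) and 2170 lower (19.2%) than with TGFβ alone, and the median log2 fold change over all tested genes was 0.01. Counts from gene lists below are to be read beside these shares. A change of at least 1 on the log2 scale was reached by 458 of the higher genes (4.06%) and 558 of the lower ones (4.94%). In 36.1% of tested genes both libraries given both supplements lay above both TGFβ libraries, and in 34.9% below them. Groups that did not overlap were thus common, and are named below as descriptions. Without TGFβ library 1 the calls numbered 2811, and 353 genes passed when the test itself required a log2 fold change above 1. For comparison, VitC alone changed 1900 genes (16.8%; 8.84% higher and 7.99% lower) and RA alone 1860 (16.5%; 7.19% higher and 9.29% lower), against the same TGFβ libraries. Without any 1 of its 4 libraries the count for VitC came to 771 to 1001, and that for RA came to 795 without TGFβ library 1 and 1060 without RA library 1.

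**Figure D1:**
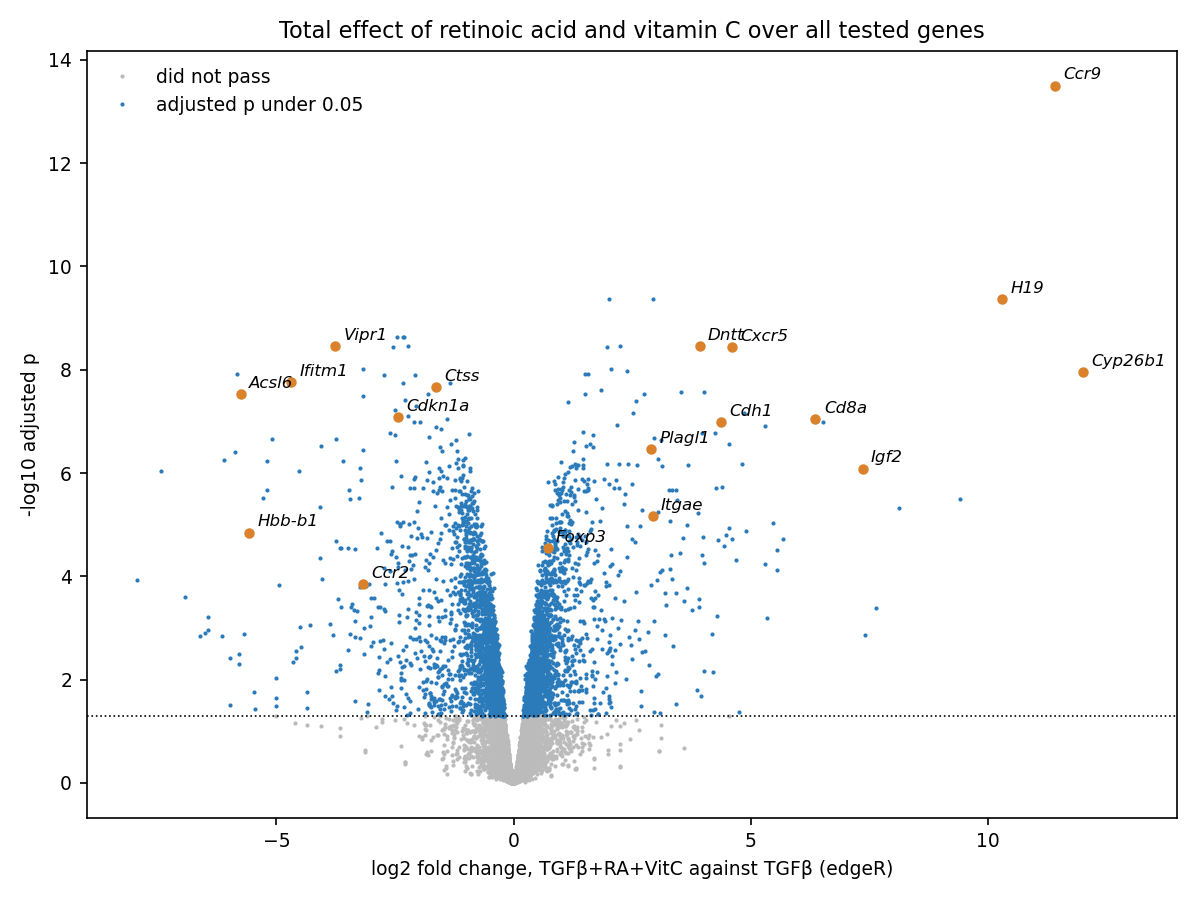
Total effect of RA and VitC on every tested gene. The x axis is the log2 fold change of TGFβ+RA+VitC against TGFβ, the y axis is minus log10 of the edgeR adjusted p, and the dotted line marks 0.05. Blue points are the 4232 called genes, and orange points are genes described in the text. Fitted values of Cyp26b1, H19 and Igf2, which had 0, 1 and 3 counts over both TGFβ libraries, depend on the prior count and are no measure of size.

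Cyp26b1 and Ccr9 were among the 12 largest rises. Cyp26b1, which encodes an enzyme that breaks RA down, had 0 counts in both TGFβ libraries and in both VitC libraries. It stood at 54.8 and 43.5 CPM with both supplements and at 59.4 and 45.1 CPM with RA alone. Both groups given RA were thus far above both groups without it, at least 350-fold higher with both supplements and at least 376-fold with RA alone, taking 3 counts over the TGFβ group as the floor. Ccr9, the receptor for the intestinal chemokine CCL25, was counted at 0.182 and 0.285 CPM with TGFβ, 0.465 and 0.27 CPM with VitC, 399 and 366 CPM with RA, and 650 and 692 CPM with both. Its total effect was 11.42 ± 0.22 (edgeR adjusted p = 3.16e-14), beside 0.63 for VitC, which did not pass, and 10.61 for RA. The TGFβ libraries held 5 counts of Ccr9 in all, so the size of the effect is less certain than this SE shows. The 2 libraries with both supplements were the highest of the 8 iTreg libraries, and the interval of the departure from the sum ran from -1.74 to 2.1.

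Among 18 tested members of the list of retinoid receptors and metabolism (34 of 35 listed were in the table), 6 rose, 4 fell and 8 did not pass, with a median of 0.22. Dhrs3, which reduces retinal to retinol, was counted at 0.364 and 0.759 CPM with TGFβ and at 7.42 and 5.06 CPM with both (3.45 ± 0.35, edgeR adjusted p = 3.31e-06). RA alone gave it 6.56 and 6.91 CPM. Nrip1, a nuclear receptor corepressor, rose by 1.75 ± 0.16. On the lower side were Rarg, the gamma receptor for RA, at 56.5 and 54.4 CPM against 29.7 and 27.4 CPM (-0.96 ± 0.11), and Fabp5, a carrier of fatty acids and RA, at -1.33 ± 0.14. Rara did not pass (-0.12, edgeR adjusted p = 0.363). Tgm2, a transglutaminase that RA induces in many cells, did not pass either (-0.89 ± 0.44, edgeR adjusted p = 0.148), but passed where the model held the 8 iTreg libraries (0.00423) or the 4 libraries (0.00142) instead of 12.

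Rarb, a receptor gene long known for an RA response element in its promoter, was under the count filter, with 2 counts over both TGFβ libraries and 12 with both supplements (ratio 5.72, exact 95% counting interval 1.27 to 52.6). Direct repeats of the RAR motif, 1, 2 or 5 bases apart, were searched on both strands in the 250 bases before each start in RefSeq (GRCm38.p6). They were found in 140 of 32851 such windows (0.426%). Of 134 named genes with a window, Rarb and Ak4, an adenylate kinase gene of the hypoxia list, held one. The stretches are shown because they are the matches among the named genes, with the element in capitals, written along the strand of the gene. The first is chr14:16575477-16575569 on the minus strand, with a spacer of 5 bases, and the second chr4:101419528-101419620 on the plus strand, with a spacer of 1 base and the element on the opposite strand.
Rarb: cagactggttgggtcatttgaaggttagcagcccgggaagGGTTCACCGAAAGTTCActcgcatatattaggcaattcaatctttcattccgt
Ak4: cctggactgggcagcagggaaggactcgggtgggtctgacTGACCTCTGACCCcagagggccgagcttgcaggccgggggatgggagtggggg
Of the genes called higher with both supplements 0.248% held such an element near a start, of those called lower 0.358%, and of all tested genes 0.265%. Ak4 fell, from 13.9 and 9.96 CPM to 0.38 and 0.0829 CPM. Cyp26b1, Ccr9 and Dhrs3 held none of these letters in this window.

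Of 35 tested homing receptors (41 listed), 11 rose and 14 fell, the latter 9 without TGFβ library 1, with a median of -0.27. Itgae, the CD103 integrin chain that binds E-cadherin, was counted at 1.18 and 2.28 CPM with TGFβ, 2.14 and 1.44 CPM with VitC, 7.87 and 5.13 CPM with RA, and 14.8 and 11.7 CPM with both. Its total effect was 2.93 ± 0.32 and that of RA alone 1.91, and the groups with and without RA did not overlap. Its ligand gene Cdh1 rose as well, from 1.64 and 1.04 CPM to 25.4 and 30.9 CPM (4.37 ± 0.31), with single effects of 2.33 for VitC and 2.1 for RA. Cxcr5, the follicle homing receptor for CXCL13, was counted at 2.64 and 2.94 CPM with TGFβ, 6.79 and 7.65 CPM with VitC, 25.3 and 20.4 CPM with RA, and 69.4 and 66.8 CPM with both. That order held without overlap of any neighbouring groups, and the total of 4.60 ± 0.23 stood beside a sum of 4.40.

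Ccr6, the CCL20 receptor of Th17 and effector Treg cells, followed VitC in both pairs of groups. It was counted at 1.00 and 1.80 CPM with TGFβ, 19.8 and 14.9 CPM with VitC, 1.31 and 0.592 CPM with RA, and 14.2 and 13.1 CPM with both. The total effect was 3.28 ± 0.30, beside 3.63 for VitC and -0.53 for RA, which did not pass. Gpr15, a receptor for homing to the large intestine, was counted at 3.73 and 1.42 CPM with TGFβ, 22.3 and 14.8 CPM with VitC, 0.187 and 0.198 CPM with RA, and 0.666 and 0.332 CPM with both. Its total effect was -2.38 ± 0.62, between 2.83 for VitC and -3.67 for RA, and its call was lost without TGFβ library 1 (edgeR adjusted p = 0.123) or RA+VitC library 2 (edgeR adjusted p = 0.0727).

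Itga4, the integrin chain that pairs with the product of Itgb7 in the gut receptor, rose from 216 and 161 CPM to 658 and 452 CPM (1.56 ± 0.25). Itgb7 was slightly lower (-0.24 ± 0.08), a call that failed without either TGFβ library or RA+VitC library 2 (edgeR adjusted p = 0.0579 to 0.187) or with limma on FPKM (adjusted p = 0.0624). Ccr2, the receptor for the inflammatory chemokine CCL2, fell from 33.7 and 26.9 CPM to 3.71 and 2.99 CPM (-3.18 ± 0.39), beside -0.63 for VitC and -1.14 for RA. Cxcr3, the receptor for interferon-induced chemokines, rose from 0.364 and 0.285 CPM to 4.28 and 2.07 CPM (3.22 ± 0.55). Ccr4 rose by 0.54 ± 0.14, which did not pass without TGFβ library 2 (edgeR adjusted p = 0.0652) or RA+VitC library 1 (edgeR adjusted p = 0.0639).

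**Figure D2:**
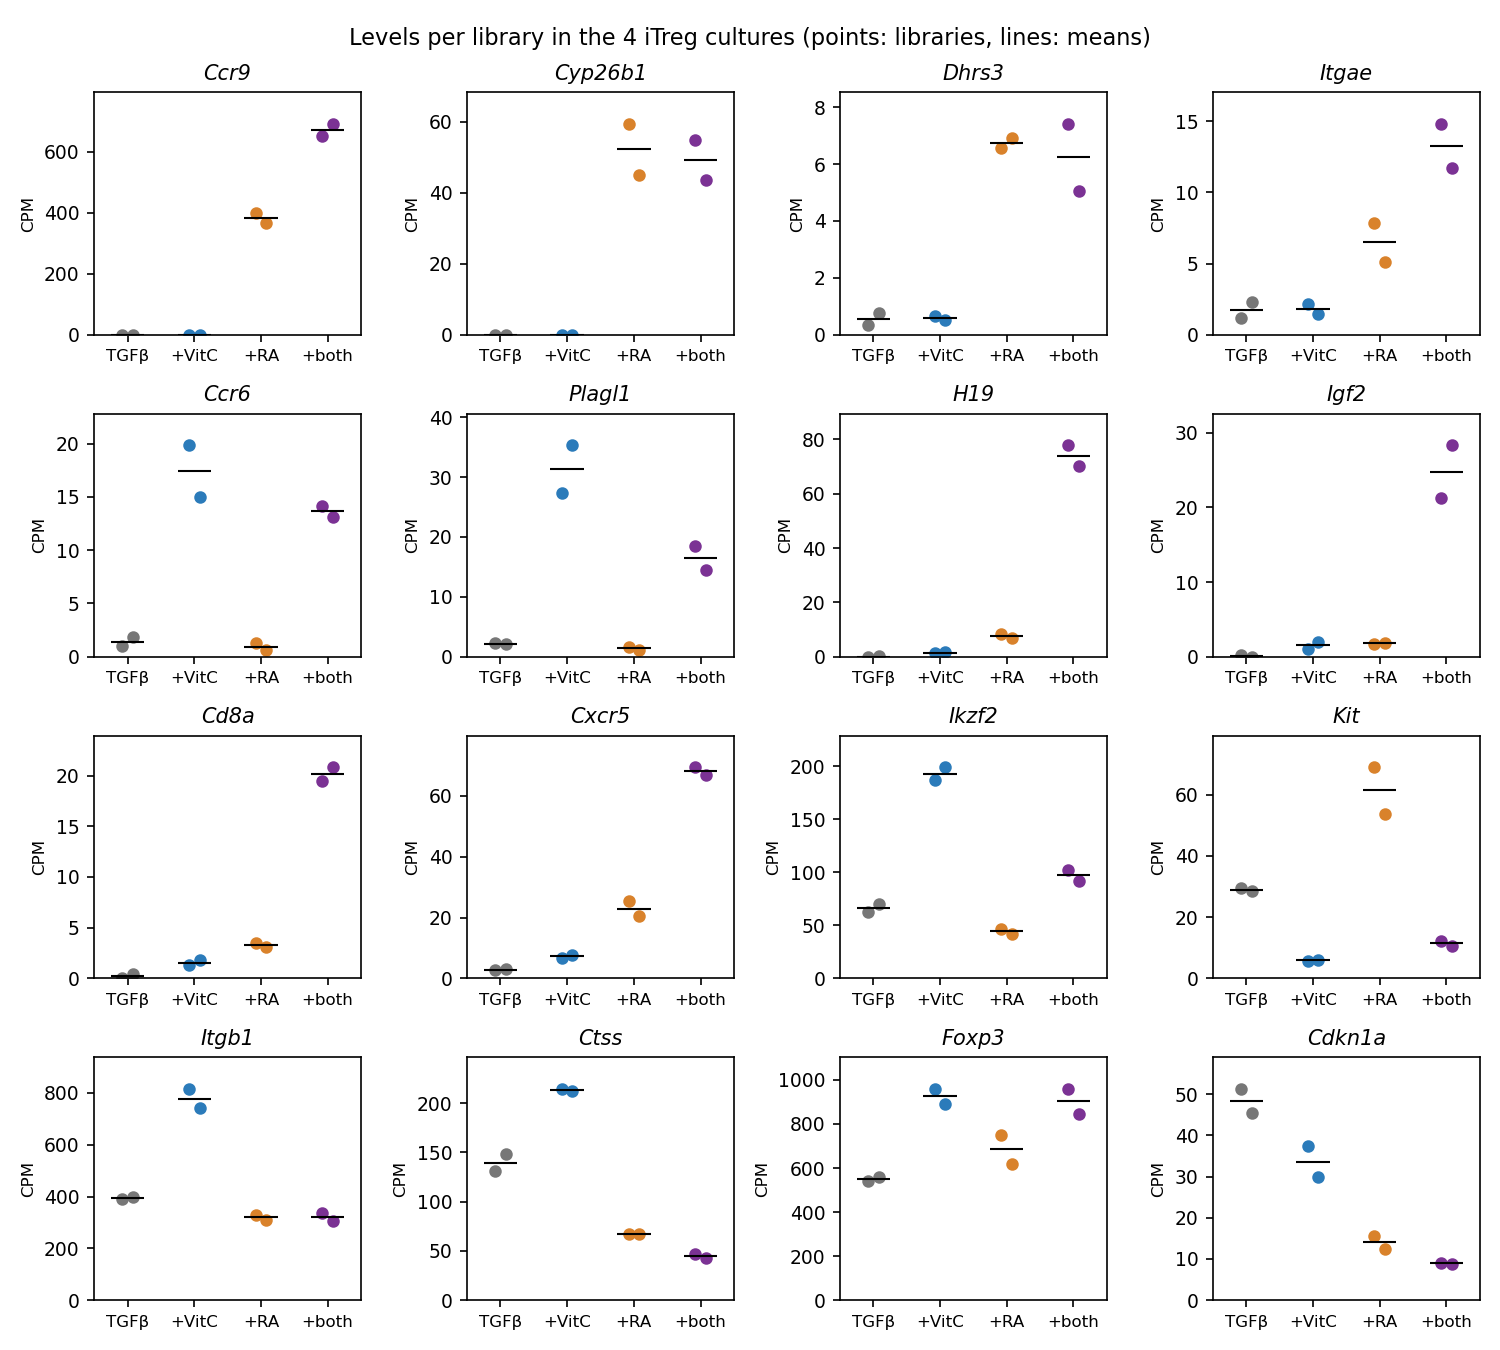
Levels of 16 genes in the 8 iTreg libraries, in CPM on linear axes that start at 0. Points are libraries, lines are means of 2, and the groups are TGFβ alone, with VitC, with RA and with both. Ccr9, Cyp26b1 and Dhrs3 are high in both groups given RA, Ccr6 and Plagl1 in both given VitC, and H19, Igf2 and Cd8a are highest with both.

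Genes of Treg identity moved in both directions. Of 42 tested members of the Treg core list (49 of 50 in the table), 19 rose, 16 fell and 7 did not pass, with a median of 0.20. Foxp3 was counted at 539 and 558 CPM with TGFβ, 959 and 892 CPM with VitC, 750 and 620 CPM with RA, and 959 and 846 CPM with both. Its total effect was 0.72 ± 0.09 (edgeR adjusted p = 2.85e-05), beside 0.76 for VitC, 0.32 for RA and a sum of 1.08. The 2 libraries with both overlapped those with VitC, and the departure from the sum, with a 95% interval of -0.63 to -0.08, did not pass after adjustment (0.764). Il2ra, the high-affinity chain of the IL-2 receptor, rose by 0.36 ± 0.08 and Ctla4, the inhibitory receptor that removes CD80 and CD86 from dendritic cells, by 0.68 ± 0.15. Neither single supplement changed Ctla4 at the threshold (0.38 and 0.35).

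Ikzf2, which encodes Helios, was counted at 62.6 and 69.8 CPM with TGFβ, 187 and 199 CPM with VitC, 46.1 and 42.3 CPM with RA, and 102 and 91.3 CPM with both. The groups did not overlap, and both supplements together stood between VitC alone and TGFβ alone. The total effect was 0.55 ± 0.13, set against 1.54 for VitC and -0.58 for RA, and narrowly missed the threshold without TGFβ library 1 (edgeR adjusted p = 0.0509). Nrp1, a semaphorin receptor found on thymic Treg cells, rose by 0.95 ± 0.13, beside 1.39 and 0.43. Ikzf4, which encodes Eos, was higher by 0.72 ± 0.18, a call lost without TGFβ library 1 (edgeR adjusted p = 0.0766). Plagl1, an imprinted zinc finger gene, was counted at 2.28 and 2.09 CPM with TGFβ and at 18.5 and 14.4 CPM with both (2.91 ± 0.23), against 27.4 and 35.3 CPM with VitC.

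Among the genes that fell were Fgl2, whose secreted product suppresses T cells, and Ecm1, a secreted matrix protein. Fgl2 went from 58.6 and 28.7 CPM to 4.75 and 3.90 CPM (-3.34 ± 0.49). Ecm1 went from 126 and 144 CPM to 29.0 and 25.9 CPM (-2.30 ± 0.11), although VitC alone raised it by 0.62. Tnfrsf18, the costimulatory receptor GITR, was lower by -0.57 ± 0.15, which did not pass without TGFβ library 2 (edgeR adjusted p = 0.0752) or RA+VitC library 1 (edgeR adjusted p = 0.0865). Maf, a transcription factor of effector Treg and IL-10 producing cells, was counted at 5.74 and 3.23 CPM with TGFβ, 32.9 and 18.6 CPM with VitC and 10.4 and 5.97 CPM with both. Its 0.85 ± 0.38 did not pass (edgeR adjusted p = 0.0979), but did without RA+VitC library 2 (edgeR adjusted p = 0.0381). Il10, Il4, Il17a and Ifng had 0 counts in all 4 libraries, and Tbx21, the master factor of Th1 cells, was under the count filter.

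Of the lists of other helper fates, that of Th17 genes held 5 that rose and 3 that fell among 10 tested, that of Th2 genes 4 and 1 among 8, and that of Th1 genes 3 and 7 among 17. Without TGFβ library 1 or RA+VitC library 2, 1 Th1 gene was called higher. Ahr, the receptor for aryl hydrocarbons, rose by 1.48 ± 0.23, while Il6ra, the IL-6 receptor, fell from 181 and 167 CPM to 83.3 and 59.7 CPM (-1.28 ± 0.16). Gfi1, a repressor that acts in Th2 cells, rose from 21.5 and 19.4 CPM to 60.5 and 65.5 CPM (1.62 ± 0.13), and Gata3, the Th2 master factor, was lower by -0.30 ± 0.09, a call lost without TGFβ library 1 or either RA+VitC library (edgeR adjusted p = 0.0503 to 0.151). Of the Th1 genes, Il12rb2 (-2.17) and Il18r1 (-1.55) fell, both receptors for cytokines that drive interferon gamma. Cxcr3, described above with the homing receptors, is on the Th1 list too and rose (3.22 ± 0.55).

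The genes with the largest rises also included several that are usual in other lineages or in precursors, some of which the naive libraries also held. H19 and Igf2, neighbouring imprinted genes that are silent in most adult cells, had 1 and 3 counts over both TGFβ libraries. H19 was counted at 1.21 and 1.62 CPM with VitC, 8.34 and 6.71 CPM with RA and 77.8 and 70.2 CPM with both. Its ratio to TGFβ was 30.5 (exact 95% counting interval 5.09 to 1240) with VitC, 162 (28.7 to 6460) with RA and 1590 (284 to 62700) with both. Igf2 was counted at 1.02 and 1.98 CPM with VitC, 1.69 and 1.88 CPM with RA and 21.3 and 28.3 CPM with both. The ratios were 10.8 (3.40 to 55.2), 12.8 (4.04 to 64.7) and 180 (61.1 to 873). For both genes the 2 libraries with both supplements lay above all other iTreg libraries. Of 12 tested imprinted genes (30 listed), 4 rose and 3 fell. Dlk1, a Notch ligand homologue from another imprinted cluster, had 31 counts with TGFβ and 0 with both, at least 10.8-fold lower.

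Cd8a, a chain of the CD8 coreceptor, was counted at 0 and 0.474 CPM with TGFβ, 1.30 and 1.80 CPM with VitC, 3.47 and 3.06 CPM with RA, and 19.5 and 20.8 CPM with both. Its total effect of 6.37 ± 0.41 stood beside a sum of 6.43, and the 4 groups did not overlap. With 5 counts over both TGFβ libraries, that size too is less certain than the SE shows. Cd8b1, the other chain, was counted at 13.2 and 14.8 CPM with TGFβ and 19.1 and 19.8 CPM with both (0.48 ± 0.13). That call was lost without TGFβ library 1 (edgeR adjusted p = 0.0976) or RA+VitC library 2 (edgeR adjusted p = 0.0627). Dntt, the terminal transferase of lymphoid precursors, went from 1.55 and 1.99 CPM to 24.7 and 29.1 CPM (3.92 ± 0.19). Cd24a, a surface glycoprotein of immature thymocytes, went from 12.1 and 21.4 CPM to 213 and 216 CPM (3.68 ± 0.23). Both stood higher with either single supplement too, by 1.44 and 3.17 for Dntt and by 1.25 and 2.02 for Cd24a. Naive cells, by comparison, held 12.7 and 11.8 CPM of Dntt and 32.05 and 34.4 CPM of Cd8b1. Their levels of Cd8a (0.53 and 0.54 CPM) and Cd24a (2.52 and 4.41 CPM) were below those with both supplements.

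Other large rises were those of Fbln2, a matrix fibulin (5.31 ± 0.46), Trim9, a ubiquitin ligase known from neurons (4.38 ± 0.31), and Plac8, a small cysteine-rich protein (4.28 ± 0.59). Trim9 was counted at 1.09 and 1.23 CPM with TGFβ, 7.54 and 10.6 CPM with VitC, 3.37 and 2.96 CPM with RA, and 24.1 and 24.6 CPM with both, without overlap of the groups. Plac8 was high in both groups given RA, at 24.2 and 33.5 CPM with RA and 21.2 and 35.1 CPM with both, against 1.64 and 1.23 CPM with TGFβ. Xcl1, a chemokine of cytotoxic and regulatory lymphocytes, had 46 counts with both and 0 with TGFβ, at least 14.6-fold higher.

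Markers of other cells moved with the groups, and their part in these results was not tested. The 9 listed CD8 T cell markers summed to 19.2 and 20.2 CPM with TGFβ and 51.2 and 51.4 CPM with both, and Gzmk was at 0. Most of that rise was in Cd8a (0.237 to 20.2 CPM), Nkg7 (3.43 to 11.3 CPM) and Cd8b1. Other members went the other way, with Ccl5 at 22 counts with TGFβ and 0 with both, Eomes at 14 and 3, and Klrd1 at 4 and 1. The 9 immature thymocyte markers, among them Dntt, Cd24a and Cd8b1, summed to 238 and 246 CPM against 469 and 500 CPM, and Rag1 was at 0 in all 4. Most of that rise was in Cd24a, from 16.7 to 214 CPM, while Themis stood at 202 and 212 CPM. Rag2, Ptcra and Arpp21 had at most 4 counts in either group. B cell markers summed to 21.1 to 24.9 CPM and 20.3 to 24.6 CPM, with Ms4a1, Pax5 and 6 others of 16 at 0. Within that sum the group level of Cd79b went from 2.78 to 11.6 CPM and that of Bank1 from 0.368 to 3.25 CPM, while that of H2-Ab1 went from 14.1 to 4.14 CPM. Myeloid and dendritic markers summed to 8.45 to 11.6 CPM and 21.0 to 24.0 CPM, with Csf1r, Lyz2, Spi1 and 9 others of 22 at 0. Most of it was Adgre1, at 6.70 CPM with TGFβ and 20 CPM with both, while Itgam went from 2.43 to 0.57 CPM. NK markers summed to 14.6 to 17.4 CPM and 6.55 to 7.23 CPM, with Ncr1, Klrb1c and 5 others of 14 at 0. Most of that sum was Il18rap, at 14.9 CPM with TGFβ and 6.36 CPM with both, while Gzma went from 0 to 6 counts. Red cell and platelet markers summed to 142 to 193 CPM with TGFβ and 8.84 to 16.2 CPM with both, with Slc4a1, Pf4 and 3 others of 10 at 0, and rested on the haemoglobin genes.

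Those haemoglobin genes were among the largest falls. Hba-a2 was counted at 134 and 93.4 CPM with TGFβ, 41.8 and 30.3 CPM with VitC, 37.7 and 66.8 CPM with RA, and 7.32 and 13.6 CPM with both (-3.42 ± 0.41). Hbb-b1 fell from 44.9 and 36.2 CPM to 0.856 and 0.830 CPM (-5.57 ± 0.47). Haemoglobin genes have near-identical copies, so how reads were split among them is uncertain.

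The other large falls were of genes with varied roles, and RA alone also lowered each of those named next. Acsl6, which activates long-chain fatty acids, was counted at 29.9 and 23.7 CPM with TGFβ, 16.8 and 13.5 CPM with VitC, 1.12 and 1.38 CPM with RA, and 0.475 and 0.498 CPM with both (-5.75 ± 0.33). Ifitm1, an interferon-induced membrane protein, was counted at 194 and 168 CPM with TGFβ, 298 and 216 CPM with VitC, 5.44 and 7.60 CPM with RA, and 8.37 and 5.72 CPM with both (-4.69 ± 0.21). Its low libraries were thus the 4 given RA. Amica1, the junctional adhesion protein JAML, fell from 28.9 and 27.9 CPM to 2.09 and 1.33 CPM (-4.06 ± 0.29). Vipr1, a receptor for vasoactive intestinal peptide, fell from 21.9 and 20.3 CPM to 1.81 and 1.33 CPM (-3.75 ± 0.19), and both single effects, -1.82 for VitC and -1.15 for RA, passed.

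Further falls were those of Dusp3, a phosphatase (-3.74), Ly6a, the surface antigen Sca-1 (-3.65), and Plxnb2, a semaphorin receptor (-3.23). Acvrl1, the type I receptor ALK1 of the TGFβ and BMP family, fell from 86.1 and 88.2 CPM to 6.18 and 8.13 CPM (-3.60 ± 0.24). VitC alone left it at 64.0 and 58.1 CPM, which did not pass, and RA alone at 15.9 and 20.9 CPM.

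Of 25 tested genes of the TET and DNA methylation list, 8 rose and 9 fell, with a median of -0.02. Tet1 was counted at 3.82 and 2.47 CPM with TGFβ and 6.94 and 6.64 CPM with both (1.10 ± 0.25, edgeR adjusted p = 0.00266). Tet2 went from 17.2 and 16.3 CPM to 20.5 and 18.8 CPM, which did not pass (0.23 ± 0.16, edgeR adjusted p = 0.284). Gadd45g, a stress gene linked to DNA demethylation, fell from 14.2 and 17.1 CPM to 3.99 and 6.55 CPM (-1.55 ± 0.31). Tet3 was higher by 0.53 ± 0.15, a call lost without TGFβ library 2 (edgeR adjusted p = 0.112) or RA+VitC library 1 (edgeR adjusted p = 0.11).

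On the methylation side, Dnmt1, which copies methylation to new strands, fell by 0.59 on the log2 scale. Its partner Uhrf1 fell from 394 and 359 CPM to 193 and 175 CPM (-1.03 ± 0.08), and both genes are also known to follow DNA replication. The writers of new methylation gave values of -0.30 for Dnmt3a and 0.53 for Dnmt3b. Both passed in the 12-library model. Dnmt3a missed the threshold without TGFβ library 1 or either RA+VitC library (edgeR adjusted p = 0.0763 to 0.345), in the fits of 8 or 4 libraries (0.0546 and 0.0545) and with limma on FPKM (0.0845). Dnmt3b missed it without TGFβ library 2 (edgeR adjusted p = 0.102) or RA+VitC library 2 (edgeR adjusted p = 0.0815). Of 43 other dioxygenases 11 rose and 8 fell, with 6 higher without TGFβ library 2, 4 higher without RA+VitC library 1, and 4 lower without TGFβ library 1 or RA+VitC library 1. Of 8 genes of VitC and glucose transport 1 rose and 4 fell. Over all tested genes 18.3% rose and 19.2% fell, and the median of the other dioxygenases was 0.03. P4ha1, a collagen prolyl hydroxylase, fell from 236 and 232 CPM to 113 and 105 CPM. Its paralogue P4ha2 was lower by -1.81 ± 0.39, a call lost without RA+VitC library 1 (edgeR adjusted p = 0.0506). Kdm6b, a histone demethylase, gave 0.54 ± 0.13, and Slc23a2, a VitC transporter, 0.35 ± 0.11, and each call failed without TGFβ library 2 or RA+VitC library 1 (edgeR adjusted p = 0.0528 and 0.0592 for Kdm6b, 0.101 and 0.205 for Slc23a2), that of Slc23a2 also without TGFβ library 1 (edgeR adjusted p = 0.0768).

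Of 31 tested genes of TGFβ signalling and response, 10 rose and 8 fell, the latter 5 without TGFβ library 1 or RA+VitC library 2. Skil, a feedback repressor of SMAD proteins, was counted at 85.1 and 92.2 CPM with TGFβ and 173 and 146 CPM with both (0.85 ± 0.11). Id1 and Id2, inhibitors of E proteins, were among the falls. Id1 went from 21.0 and 20.4 CPM to 3.42 and 4.56 CPM (-2.36 ± 0.21) and Id2 from 175 and 168 CPM to 52.9 and 57.4 CPM (-1.64 ± 0.12). RA alone lowered both (-1.71 and -1.22), and VitC alone changed neither at the threshold. Smad7 (-0.41 ± 0.12), the inhibitory SMAD, and Serpine2 (-1.06 ± 0.36), a protease inhibitor, passed. Smad7 did not without TGFβ library 2 or RA+VitC library 2 (edgeR adjusted p = 0.0895 and 0.106). Serpine2 did not without TGFβ library 1 or RA+VitC library 2 (edgeR adjusted p = 0.2 and 0.208) or with DESeq2 (adjusted p = 0.0809).

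Genes of proliferation were lower almost throughout. All 50 tested members of the DNA replication list fell, with a median of -0.63, as did 50 of 52 mitosis genes, with a median of -0.90. The exceptions, named after their values were seen, were Smc4 (0.09) and Pttg1 (-0.18). When each of the 4 libraries was left out in turn, 43 to 47 and 48 to 50 members were still called lower, and none passed where a log2 fold change above 1 was required. Cdc45, a subunit of the replicative helicase, was counted at 82.7 and 83.3 CPM with TGFβ, 57.3 and 58.7 CPM with VitC, 49.9 and 58.0 CPM with RA, and 38.6 and 40.6 CPM with both (-1.07 ± 0.10). Cdk1, the kinase that starts mitosis, was counted at 204 and 185 CPM, 147 and 124 CPM, 119 and 135 CPM, and 87.3 and 92.7 CPM in the same order (-1.11 ± 0.10). In both genes the libraries with both supplements were the lowest of the 8, and those with TGFβ alone the highest.

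Of 16 tested inhibitors of cyclin-dependent kinases and D cyclins 8 fell and 1 rose. Cdkn1a, the p53 target p21, was counted at 51.3 and 45.4 CPM with TGFβ, 37.3 and 30.0 CPM with VitC, 15.7 and 12.4 CPM with RA, and 9.13 and 8.79 CPM with both (-2.43 ± 0.17). The 4 groups did not overlap and fell in that order. Myc was lower by -0.27 ± 0.08, which failed without either TGFβ library or RA+VitC library 2 (edgeR adjusted p = 0.0574 to 0.123). Of 39 genes of Myc and ribosome biogenesis 10 fell and 1 rose, and 2 were called lower without TGFβ library 2 and 4 without RA+VitC library 1.

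Of 26 tested glycolysis genes 18 fell and 2 rose, with a median of -0.78, of 25 hypoxia response genes 15 fell and 3 rose, with a median of -0.67, and of 39 cholesterol and fatty acid synthesis genes 31 fell and 0 rose, with a median of -0.89. Slc16a3, the lactate exporter MCT4, went from 108 and 78.8 CPM to 9.79 and 11.7 CPM (-3.12 ± 0.34). Tpi1, a glycolytic isomerase, went from 690 and 568 CPM to 214 and 201 CPM (-1.60 ± 0.17). Ankrd37, a target of hypoxia-inducible factor, fell by 2.48, while Plin2, a coat protein of lipid droplets on the same list, rose by 1.34 ± 0.17. Glycolysis and hypoxia lists share members such as Slc2a1, the main glucose transporter (-0.72).

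Scd1, which puts the double bond into stearate, was counted at 195 and 110 CPM with TGFβ, 126 and 89.8 CPM with VitC, 15.3 and 15.9 CPM with RA, and 22.1 and 24.1 CPM with both. The total effect was -2.72 ± 0.34 beside -3.29 for RA and -0.50 for VitC, which did not pass. Fdps, a step of the cholesterol pathway, was counted at 362 and 270 CPM with TGFβ, 191 and 158 CPM with VitC, 107 and 142 CPM with RA, and 92.0 and 109 CPM with both (-1.65 ± 0.16). For the list as a whole the median total effect of -0.89 stood beside medians of -0.35 for VitC and -0.82 for RA. The median sum of the single effects was -1.19, but the departure passed for no member of the list.

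Of 36 genes of the ATF4 response, serine and one-carbon metabolism 17 fell, or 10 without TGFβ library 2, and 1 rose, and of 31 NRF2 and glutathione genes 11 fell and 2 rose. Of 60 interferon response genes 17 rose, 3 fell and 40 did not pass, and without TGFβ library 1 or RA+VitC library 2, 9 were called higher and 1 lower. Ly6a (-3.65) was among the falls. Gbp3, a guanylate-binding protein, was counted at 21.2 and 23.7 CPM with TGFβ, 57.0 and 65.8 CPM with VitC, 40.8 and 46.7 CPM with RA, and 60.9 and 73.4 CPM with both (1.58 ± 0.14, against a sum of 2.41). The departure of Gbp3 from that sum did not pass (edgeR adjusted p = 0.27). Gbp5 rose by 1.66 ± 0.19. Among 18 tested cytokine transcripts 8 rose and 4 fell, with 4 higher without TGFβ library 1. Tnfsf8, the ligand of CD30, fell from 42.2 and 40.6 CPM to 12.2 and 11.6 CPM (-1.80 ± 0.11).

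**Figure D3:**
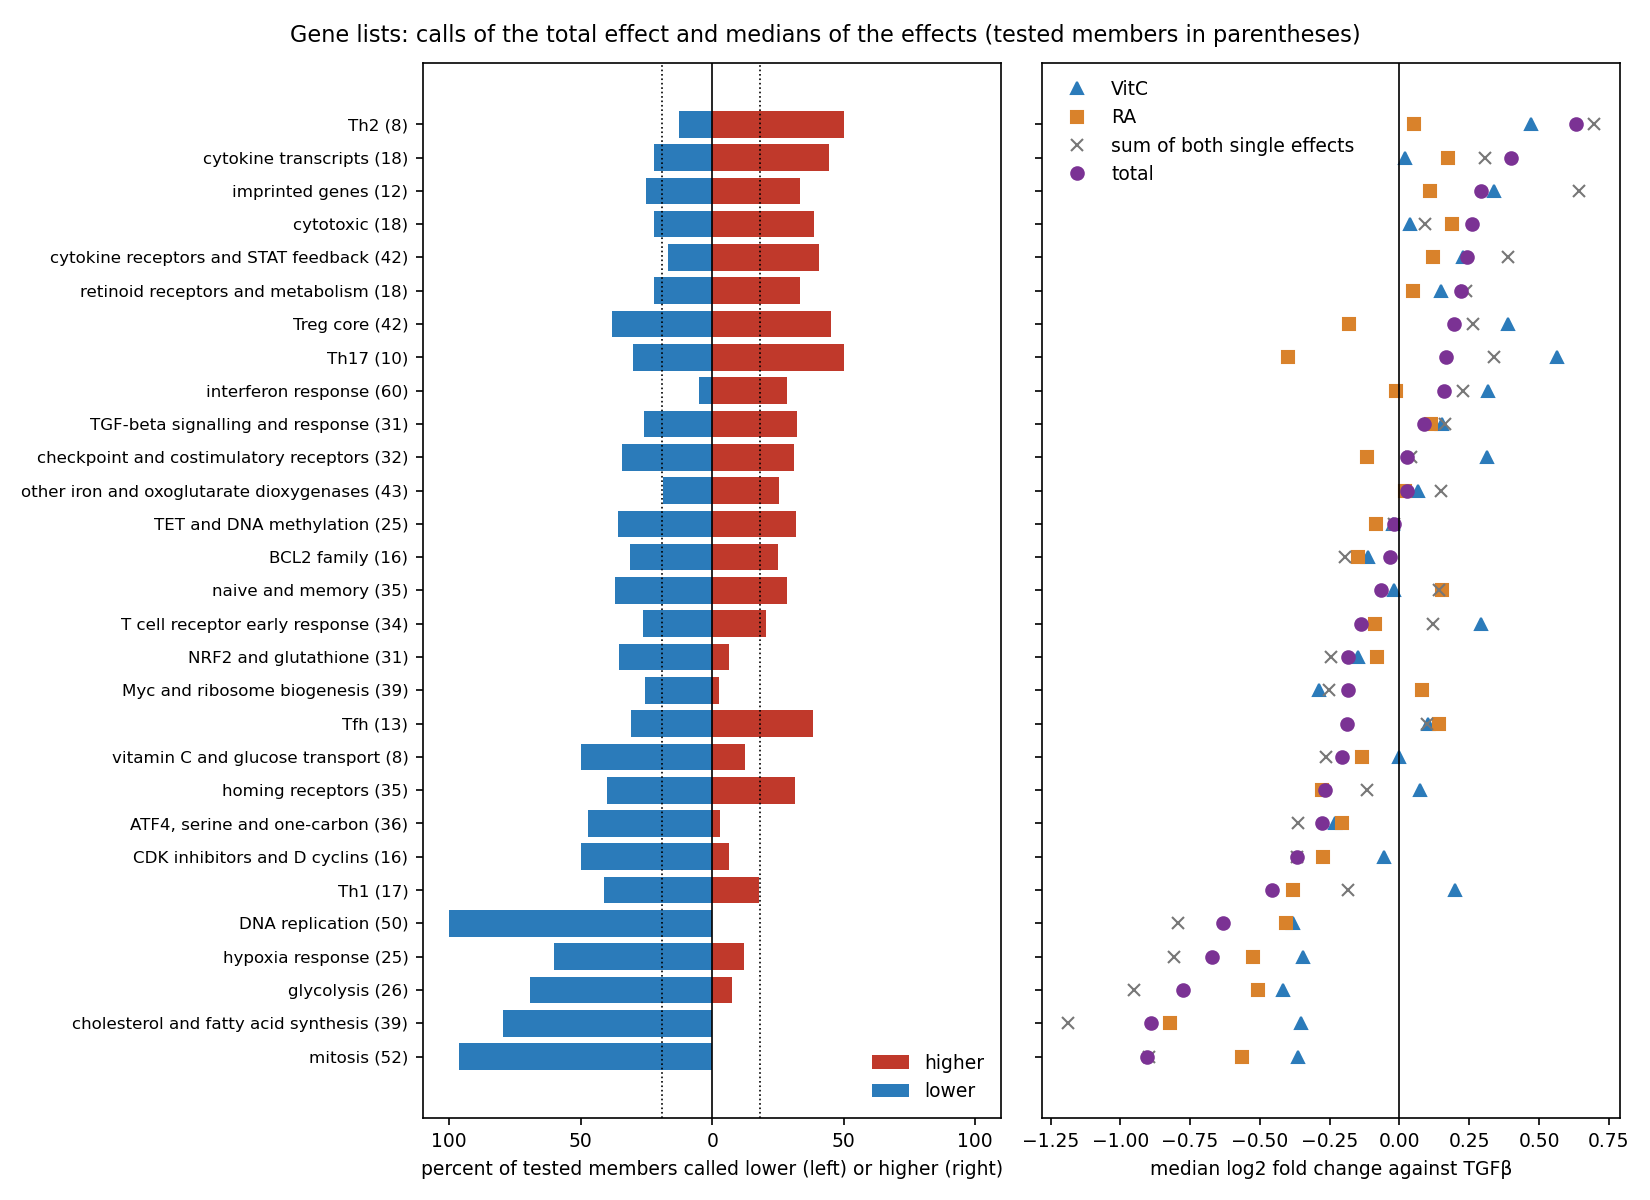
Gene lists under both supplements, ordered by the median total effect. The left panel gives the percent of tested members called lower (blue, to the left) and higher (red, to the right), with dotted lines at the 19.2% and 18.3% over all tested genes, and the right panel the median log2 fold change against TGFβ for VitC, RA, their sum and the total. DNA replication and mitosis are called lower almost throughout. The median of cholesterol and fatty acid synthesis is -0.89 against a sum of -1.19, and the departure passed for no member of that list.

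Lists of receptors and activation genes held calls in both directions, as did all tested genes (18.3% higher and 19.2% lower). Of 32 tested checkpoint and costimulatory receptors 10 rose and 11 fell, of 42 cytokine receptors and STAT feedback genes 17 rose and 7 fell, of 35 naive and memory genes 10 rose and 13 fell, and of 34 early response genes of the T cell receptor 7 rose and 9 fell, with 4 and 5 left without RA+VitC library 2 and 4 higher without TGFβ library 2. Pdcd1, the inhibitory receptor PD-1, was counted at 5.92 and 4.17 CPM with TGFβ and 13.7 and 15.8 CPM with both (1.54 ± 0.20). Cd86, a ligand of CTLA-4 and CD28, fell from 11.5 and 7.78 CPM to 2.66 and 1.58 CPM (-2.20 ± 0.30). Cd83, a surface protein of activated lymphocytes, was counted at 2.55 and 3.42 CPM with TGFβ, 8.93 and 11.2 CPM with VitC, 1.12 and 1.19 CPM with RA, and 0.856 and 0.581 CPM with both. Il4ra, the IL-4 receptor, rose from 423 and 409 CPM to 682 and 690 CPM (0.72 ± 0.07).

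Actn1, a crosslinker of actin, went from 92.7 and 99.5 CPM to 313 and 257 CPM (1.57 ± 0.14). Dapl1, a marker of naive cells, went from 68.3 and 51.1 CPM to 10.7 and 11.4 CPM (-2.44 ± 0.26). Of 13 tested Tfh genes 5 rose and 4 fell, of 18 cytotoxic genes 7 rose and 4 fell, and of 16 BCL2 family genes 4 rose and 5 fell. Without any 1 of the 4 libraries 2 cytotoxic genes were called lower, and without TGFβ library 2 or RA+VitC library 1 2 BCL2 family genes were called higher. Nkg7, a granule protein of cytotoxic cells, was counted at 3.92 and 2.94 CPM with TGFβ, 1.02 and 1.26 CPM with VitC, 16.2 and 16.5 CPM with RA, and 12.3 and 10.3 CPM with both. It rose by 1.71 ± 0.22 in total although the effect of VitC alone was -1.58. Bax, a pore-forming effector of apoptosis, fell from 111 and 109 CPM to 60.6 and 66.3 CPM (-0.79 ± 0.11).

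Whether the total effect equals the sum of the single effects was tested as an interaction on the log2 scale, on which a sum of effects is a product of folds. The comparisons against TGFβ share their 2 control libraries, so their values are set side by side and the departure was tested within 1 model. It passed for 2 of 11287 genes (0.0177%), both with a total below the sum. At an unadjusted p under 0.05 there were 564 (5.0% of the tested genes), of which 375 were below the sum and 189 above it. This threshold passes that share where no gene departs. The share alone does not show that no gene departs, and the split below and above the sum was uneven. The match also depends on the model, as 812 genes passed with same-numbered libraries paired as blocks. With DESeq2 329 passed, without the count filter 641 and with limma on FPKM 643. The 2 RA libraries also differed from each other more than those of any other group (chi-square per degree of freedom 10.99, against 4.86 to 6.78). DESeq2 called 17 departures, limma on FPKM 23, edgeR without the count filter 25 and edgeR with the paired blocks 26.

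The precision of this test was limited. The median SE of a departure was 0.18, against 0.13 for a total effect. For 80.3% of tested genes the 95% interval of the departure lay within -1 to 1, but this held for 358 of the 1016 genes with a called total effect of at least 1 (35.2%). For the rest the interval reached past -1 or 1.

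Ctss, the cysteine protease cathepsin S, which degrades the invariant chain in antigen presentation, was counted at 131 and 148 CPM with TGFβ, 214 and 212 CPM with VitC, 67.3 and 67.5 CPM with RA, and 47.0 and 43.0 CPM with both. The 4 groups did not overlap. VitC alone raised it by 0.61, RA alone lowered it (-1.05), and both together gave -1.63 ± 0.10, so the libraries with both were below those with RA alone. The departure from the sum of -0.43 was -1.20 ± 0.14 (edgeR adjusted p = 0.00314).

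Itgb1, the integrin beta 1 chain, was counted at 388 and 396 CPM with TGFβ, 815 and 740 CPM with VitC, 329 and 311 CPM with RA, and 335 and 304 CPM with both. The rise of 0.99 with VitC was thus not seen in the presence of RA, where the groups with and without VitC overlapped. The departure from a sum of 0.69 was -0.99 ± 0.13 (edgeR adjusted p = 0.00648), a call that missed the threshold without TGFβ library 1 (edgeR adjusted p = 0.0727), VitC library 1 (edgeR adjusted p = 0.0638) or RA+VitC library 2 (edgeR adjusted p = 0.0569). Its total effect of -0.30 ± 0.09 passed as well, but not without either TGFβ library or RA+VitC library 2 (edgeR adjusted p = 0.0625 to 0.124).

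The 8 genes of this paragraph and the next were chosen for opposite single effects that both passed, so their opposition is a description. Their totals came out on either side of 0. Gpld1, a phospholipase that releases GPI-anchored proteins, was counted at 79.4 and 68.8 CPM with TGFβ, 220 and 193 CPM with VitC, 35.0 and 28.7 CPM with RA, and 80.5 and 69.8 CPM with both. Its libraries with both supplements overlapped those with TGFβ alone, and the total was 0.02 ± 0.11. Adamtsl4, a matrix protein (1.47 and -1.60 singly, -0.06 in total), and Cd80, a costimulatory ligand (1.47 and -1.05 singly, -0.19 in total), did not pass in total either, nor did Cdhr3, a cadherin-like protein (1.09 and -1.61 singly, 0.27 in total).

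Kit, the receptor for stem cell factor, was counted at 29.4 and 28.6 CPM with TGFβ, 5.77 and 6.03 CPM with VitC, 69.0 and 53.8 CPM with RA, and 12.4 and 10.7 CPM with both. It was lower in both groups given VitC than in their counterparts, and the total was -1.33 ± 0.18. Muc1, a membrane mucin, showed the reverse, with 2.65 for VitC, -1.39 for RA and a total of 1.07 ± 0.18. Dock4, an activator of small GTPases, rose by 0.81 ± 0.17 in total against a sum of -0.21, a departure of 1.02 with a 95% interval of 0.47 to 1.58 that did not pass after adjustment (0.36). Dusp4, a phosphatase of MAP kinases, gave -0.98 ± 0.23, which was narrowly lost without TGFβ library 1 or RA+VitC library 2 (edgeR adjusted p = 0.052 and 0.0514).

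**Figure D4:**
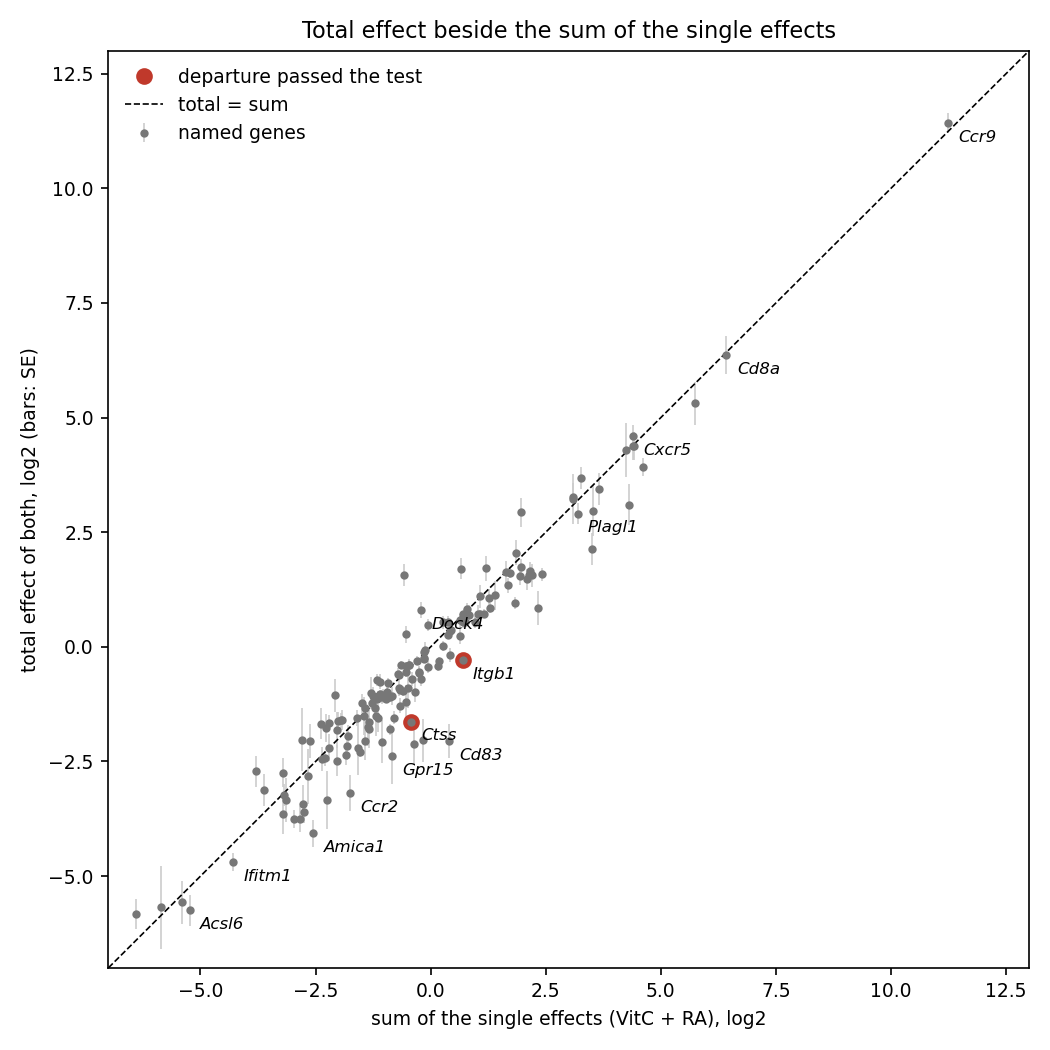
Total effect beside the sum of the single effects for the 160 named genes with more than 3 counts in each of the 4 groups. The x axis is the sum of the VitC and RA effects and the y axis the total effect with its SE as a bar, both log2 fold changes against TGFβ. The dashed line marks equality. Both axes share the TGFβ libraries, so the closeness of points to the line is no test. Red points are Ctss and Itgb1, whose departures passed.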

How the data were processed

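Polyadenylated RNA was sequenced by the authors from libraries made with a stranded TruSeq kit for mRNA, as the protocols in the labels say. Per the submitters' processing notes the genome build was mm9 and the tools named are TopHat2 2.1.1 and Trim Galore 0.4.2, Picard 2.5.0 and SAMtools 1.7, and edgeR 3.26.6 in R 3.6.1. The counting tool, its strand setting and the annotation release are not given in the sources used here, so reads of overlapping and antisense genes may be mixed. The deposited count table holds whole numbers of reads for 21761 genes, 92 of them without a symbol. The deposited FPKM table holds the same libraries scaled to library total and exon length, and served as an alternative with a pseudocount of 1.

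Libraries took their groups from the labels. Counts of 12 libraries in 6 groups of 2 were fitted in edgeR 4.0.16 (R 4.3.3) after TMM scaling. The filterByExpr filter kept 11287 genes. Tests were robust quasi-likelihood ones, 2-sided, with 6 residual degrees of freedom, and Benjamini-Hochberg adjustment over all tested genes at 0.05. The contrasts were both supplements, VitC and RA against TGFβ, and the interaction. The SE is the log2 fold change over the square root of F, which can understate the uncertainty of a large change from few counts. With 0 counts in a group a fold is a bound that takes 3 counts for that group. Groups of 1 to 3 counts get a ratio with an exact 95% interval, which covers counting error alone. An exact permutation test of 2 against 2 libraries cannot go below p = 0.333 and was not used. The scripts were tested on simulated counts.

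The members and gene lists were chosen with earlier results of these data known, so lists are given as counts and medians with no set test. Named genes were those followed throughout, the 12 genes that rose most and the 12 that fell most at a mean level of 10 CPM or more, the called departures, up to 4 called members of each list and 8 genes with opposite single effects, of which the text describes a choice. Some genes under this rule are not reported here. Alternatives were DESeq2 1.42.0, RLE factors, no filter, a replicate block, fits of 8 or 4 libraries, limma-trend 3.58.1 on log2(FPKM + 1), a required log2 fold change of 1, and leaving out each library. The genome of build mm9 was not used here, and promoter sequences come from RefSeq on GRCm38.p6.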

Additional observations from a re-analysis of the deposited data

Results flagged for a closer look

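The effect of RA in the presence of VitC differed from its effect without VitC for 2 genes, by the interaction term of the model over all genes. For Ctss the difference was -1.20 ± 0.14 on the log2 scale (edgeR adjusted p = 0.00314), and it was called under every alternative except a required log2 fold change of 1. For Itgb1 the difference was -0.99 ± 0.13 (edgeR adjusted p = 0.00648), and the call was lost without TGFβ library 1, VitC library 1 or RA+VitC library 2 and with a required log2 fold change of 1. In both genes VitC alone raised the level, by 0.61 and 0.99, and with both supplements the level was below that with RA alone (Ctss) or overlapped it (Itgb1).

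Among genes whose departure did not pass, Tnfsf8 had a departure of -0.92 ± 0.15 (edgeR adjusted p = 0.0684) and Adgre1, which encodes the macrophage antigen F4/80, one of 2.15 ± 0.39 (edgeR adjusted p = 0.0893). Adgre1 was counted at 8.65 and 4.75 CPM with TGFβ, 14.2 and 10.98 CPM with VitC, 2.53 and 2.27 CPM with RA, and 18.5 and 21.4 CPM with both.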

How the results depend on the processing

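The 4232 genes changed by both supplements came to 353 with a required log2 fold change of 1 (162 higher and 191 lower, from 2062 and 2170) and to 3510 to 4979 under the other full-library settings, of which DESeq2 gave 3510 and the replicate block 4979. Leaving out each of the 4 libraries compared gave 2811 to 3301 (1327 to 1596 higher, 1484 to 1705 lower), and leaving out each VitC or RA library 4149 to 4522. The 2 departures became 17 with DESeq2, 25 with no count filter, 26 with the replicate block, 23 with limma on FPKM and 0 with a required log2 fold change of 1, and 1 to 11 when each of the 8 iTreg libraries was left out, 11 of them without RA library 2. VitC alone changed 1900 genes, 52 with a required log2 fold change of 1 and 771 to 1001 when each library of the comparison was left out. RA alone changed 1860, with 136 and 795 to 1898 under the same settings. The cause of these shifts was not tested. A fit without a library holds fewer samples, and a required log2 fold change is a stricter null.

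The replicate numbers give only 2 pairs per comparison and the labels tie them to no mouse or day. The differences between library 1 and 2 correlated at 0.25 between TGFβ and RA+VitC and at 0.239 to 0.471 over the pairs of iTreg groups, a hint that same-numbered libraries deviated together, but with 2 numbers they were treated as names. With the replicate block, VitC alone changed 2827 genes and RA alone 2584. None of the 171 named genes tested reversed, and of their 163 calls 5 were lost with DESeq2, 0 with RLE factors, 2 with no count filter, 1 with the replicate block (which gained 1, Maf), 6 with limma and 95 with a required log2 fold change of 1, and 19 to 24 when a library of the comparison was left out. The lone library then left in a group is assumed to vary like the other groups. Genes with few counts are limited by depth.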
